A study of Drosophila melanogaster with 2 samples.

Results

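The 10 genes described here encode subunits of the Polycomb repressive complexes of Drosophila and the DNA-binding protein Pho, and they were looked up among 13945 protein-coding genes on the 6 chromosome arms. The set holds ph-p, ph-d, Psc, Su(z)2, Pc, Sce, Scm, E(z), Su(z)12 and pho. It was chosen by gene name, with earlier results of these data known. A binding site was assigned to a gene when its summit lay within the gene or within 500 bp of any of its start sites (TSS). The measurement is chromatin immunoprecipitation followed by sequencing (ChIP-seq) for CG11247, a zinc-finger protein, in whole embryos collected from 0 to 24 h of development. The flies carried a transgene for CG11247 fused to eGFP, and an anti-GFP antibody was used. There is 1 group with 2 biological replicates and no second condition, and the control experiment was not analysed here. Whole embryos mix all tissues and stages, so a site used in a few cells and a site used weakly in all cells cannot be told apart.

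Polycomb group proteins keep developmental genes silent through cell divisions. Polycomb repressive complex PRC1 is built from Polyhomeotic, Polycomb, a Posterior sex combs type protein and Sex combs extra, and it compacts chromatin and ubiquitinates histone H2A. PRC2 methylates histone H3 at lysine K27, the mark that Polycomb itself binds. In flies both are brought to DNA at Polycomb response elements, to which Pho binds. The comparison here is of the genes that encode this machinery, as places where CG11247 was bound, with all other genes.

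Of the 10 genes, 6 had a binding site that passed the reproducibility limit in the pooled data (ph-p, E(z), Psc, Su(z)12, Pc and ph-d). Passing means membership of the authors' thresholded list, whose peaks have an irreproducible discovery rate (IDR) of at most 0.01. By the same rule 24.1% of all protein-coding genes were called, and 27.4% of genes in the length range of the members, which run from 1.6 to 15 kb. The median length was 8.36 kb for the members and 2.17 kb for all genes, and a share at matched length was not computed. In replicate 1, 5 of the 10 were called against 18.2% of all genes, and in replicate 2 it was 3 of 10 against 17.2%. The authors' conservative list, made from the true replicates, called 5 of 10 against 22.4%, and without the gene bodies, counting start sites only, it was 4 of 10 against 18.6%. With 10 genes, chosen with earlier results of these data known, and no test over the list, these shares are a description.

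The 10 genes held 92 ranked summits, which are all places the caller scored, and 10 of these passed. The deposited peak signal is a score that ranks peaks within a list and is not comparable between lists. Signals of the 10 passing summits ran from 73.6 to 1735, and those of the other 82 ran from 2.29 to 78.5 with a median of 24.2. Of the passing summits, 5 lay in a 5′ UTR exon, 4 in an intron and 1 in a coding exon, whereas 51 of the 82 others lay in coding exons. A passing peak was found in both replicates at 6 of the 10 summits, in replicate 1 alone at 3, and in neither at 1. Over all pooled passing peaks the shares were 45.5% in both, 29.3% in a single replicate and 25.1% in neither.

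The strongest summit of each gene set the order of the members. In the pooled list it was ph-p with 1735, E(z) with 383, Psc with 265, Su(z)12 with 109, Pc with 105, Su(z)2 with 78.5, ph-d with 73.6, Scm with 66.1 and Sce with 29.8. No ranked summit was assigned to pho. The first 3 places and the last were the same in both replicates. The 5 genes between them (Su(z)12, Pc, Su(z)2, ph-d and Scm) all took different places in the replicates, so their order is not fixed by these data. The median over the 9 genes with a summit was 105 in the pooled list, 56.8 in replicate 1 and 46.4 in replicate 2. The medians over all genes with a ranked summit were 55.3, 30.5 and 31.1. A strongest value is taken over all ranked summits of a gene, which numbered 26 for Psc and 3 for Sce in the pooled list. The members are longer than most genes, and neither these medians nor the shares of genes with a lower value given below were matched for length.

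**Figure D1:**
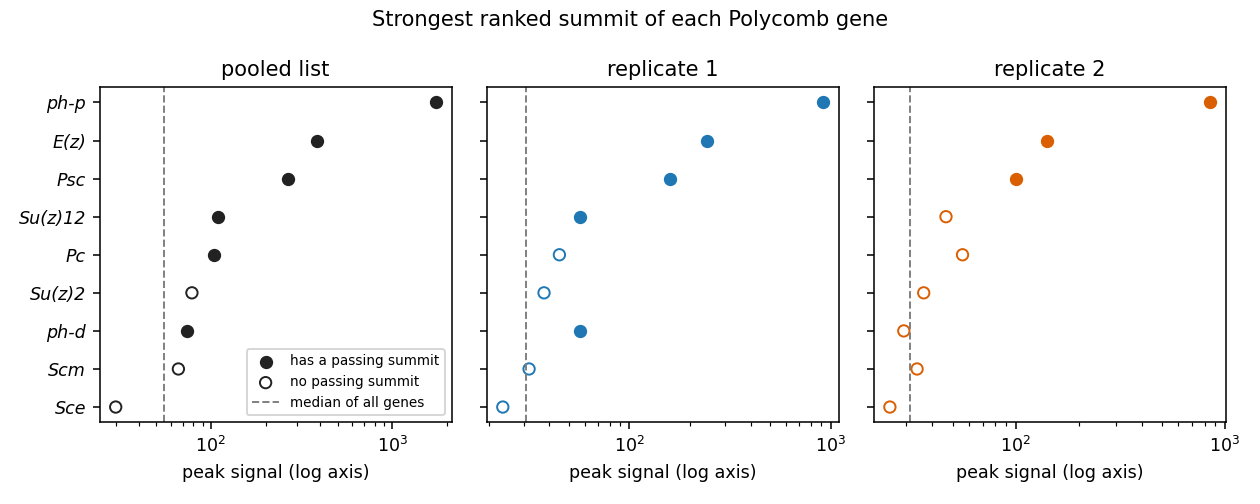
Signal of the strongest ranked summit (log axis) of each of the 9 genes that had one, in the pooled list and in each replicate. Filled points are genes with a passing summit in that list, open points genes without one, and the dashed line is the median over all genes with a ranked summit; ph-p, E(z) and Psc lead in all 3 panels.

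ph-p encodes Polyhomeotic proximal, the PRC1 subunit whose SAM domain joins complexes into chains, and it carried the strongest binding of the set. Its strongest summit had a signal of 1735 in the pooled list, 913 in replicate 1 and 847 in replicate 2. Those are places 8, 10 and 7 among all ranked peaks of the 3 lists, which hold 137752, 109282 and 125735 peaks. The 2 replicate summits lay 5 and 8 bp from the pooled one. Among genes with a ranked summit, 99.9% had a lower strongest signal in each list. ph-p (FBgn0004861, minus strand, chrX:2126210-2138371 on dm6) has 3 annotated start sites, and the summit at position 2137346 lies in an intron, 1025 bp after the outermost start and 491 bp before the next.

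ph-p had 4 more passing summits, all within 4 kb of its outermost start. The second, in a 5′ UTR exon 476 bp after that start, had a signal of 693, with 451 and 261 in the replicates. An intronic summit 1270 bp after the nearest start had 206, with 127 and 90.9. These 3 sites passed in both replicates. A further intronic summit had 120, with 88.4 and 44.4, and passed in replicate 1 only. The fifth, 66 bp after a start, had 109, with 66.5 and 29.4, passed in both replicates and was absent from the conservative list. Of all genes, 5.68% had 2 or more passing summits and 0.509% had 5 or more, which is 71 genes. Those 71 had a median length of 50.7 kb against 2.17 kb for all genes. Besides ph-p, with 12.2 kb, only 1 of the 71 was no longer than ph-p, the 8847 bp gene Vha100-2, which encodes a proton pump subunit.

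ph-d, Polyhomeotic distal, is the neighbouring copy of ph-p and encodes a protein of 1537 residues against 1589, identical at 88.9% of 1514 aligned residues. Its own sites had lower signals. The strongest summit in ph-d (FBgn0004860, minus strand, chrX:2115727-2123286) lay 121 bp after the start in a 5′ UTR exon and had a signal of 73.6. That peak had 56.8 in replicate 1, where it passed, and 21.4 in replicate 2, where it did not and another summit of ph-d led with 29.2. It was absent from the conservative list.

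A stronger site stood just outside the 500 bp limit, 762 bp upstream of the ph-d start. It had a signal of 310 in the pooled list, with 158 and 118 in the replicates, and passed in both. With the limit at 1000 bp it would belong to ph-d and be its strongest site. This site and the others described below outside the genes were picked after their values were seen.

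**Figure D2:**
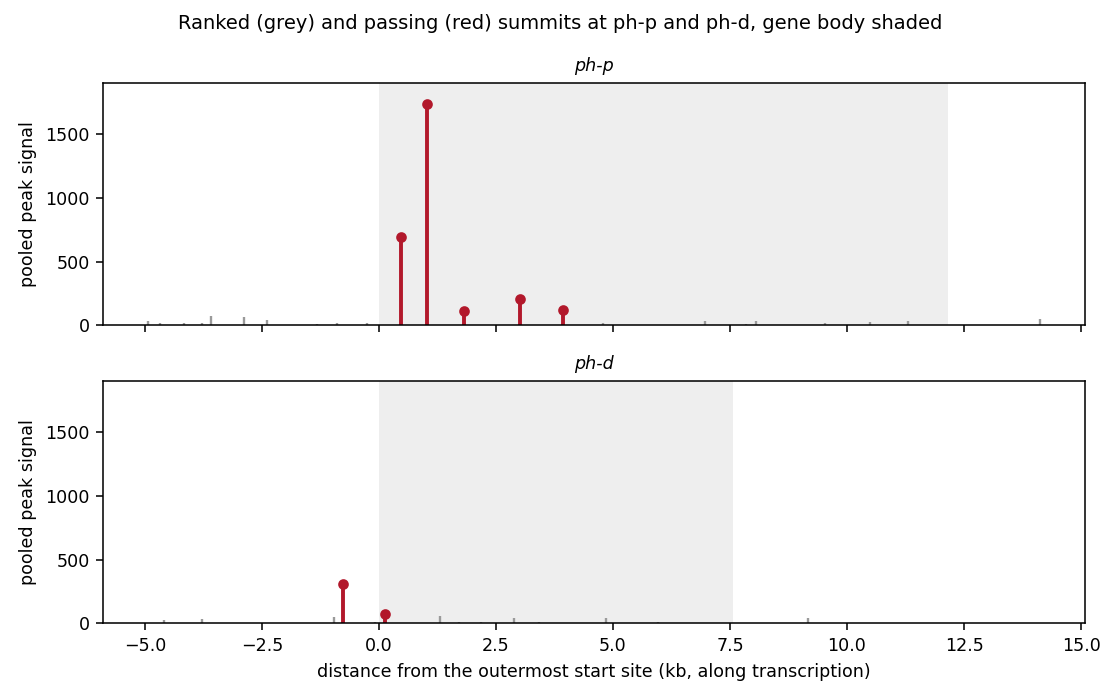
Pooled signal of each summit along ph-p and ph-d against the distance in kb from the outermost start site of the gene, in the direction of transcription. Red stems are passing summits, grey stems are ranked summits that did not pass, and the gene body is shaded; ph-p has 5 passing summits of up to 1735 near its 5′ end, and ph-d has 1 of 73.6 inside the gene and 1 of 310 upstream.

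The copies differ in DNA where the strongest site lies. Sequence comparison of the gene pair gave 4 matching blocks over 100 bp, with identities from 70.5% to 92.0%, and 47.0% of ph-p bases matched ph-d. The strongest ph-p summit fell between a pair of blocks, in a stretch of 208 bases for which ph-d has 15. An end-to-end alignment of the 5′ regions, with 89.0% identity over 1267 paired bases, left 94 and 103 ph-p bases of this stretch without a partner, and the summit is in the first of these. In the part of the alignment upstream of the ph-d start the ranked list held 3 summits, 78, 762 and 965 bp before it, with signals of 9.41, 310 and 46.1, and the second of these passed. The sequences below are shown because they hold that difference: capitals mark the bases between the matching blocks, with 40 flanking bases on each side, both on the plus strand of dm6, at chrX:2137225-2137512 for ph-p and chrX:2123657-2123751 for ph-d.
ph-p: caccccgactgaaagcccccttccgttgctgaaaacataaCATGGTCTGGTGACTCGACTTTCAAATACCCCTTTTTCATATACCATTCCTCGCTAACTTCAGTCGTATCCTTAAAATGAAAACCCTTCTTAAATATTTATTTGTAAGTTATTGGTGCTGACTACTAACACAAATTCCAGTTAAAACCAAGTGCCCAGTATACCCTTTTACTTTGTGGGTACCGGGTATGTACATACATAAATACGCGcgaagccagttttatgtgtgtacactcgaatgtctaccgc
ph-d: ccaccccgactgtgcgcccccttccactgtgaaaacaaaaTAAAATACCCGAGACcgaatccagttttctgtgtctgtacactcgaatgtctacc

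The second ph-p summit, at 2137895 with a signal of 693, also fell between matching blocks, which end at 2137855 and resume at 2137954. In the end-to-end alignment it does have a counterpart. Aligned to ph-p, the summit upstream of ph-d falls on position 2137851, 44 bp from this ph-p summit. Aligned to ph-d, the ph-p summit falls 78 bp from the summit upstream of ph-d. The 2 windows, 100 bp to each side of the summit on the plus strand of dm6, are shown because both copies were bound here at unequal signal. The ph-p window at chrX:2137795-2137995 holds CGATA, the core bound by the insulator protein BEAF-32, with its middle 2 bases from the summit (capitals). The ph-d window at chrX:2123948-2124148 holds none of the 9 motifs searched.
ph-p: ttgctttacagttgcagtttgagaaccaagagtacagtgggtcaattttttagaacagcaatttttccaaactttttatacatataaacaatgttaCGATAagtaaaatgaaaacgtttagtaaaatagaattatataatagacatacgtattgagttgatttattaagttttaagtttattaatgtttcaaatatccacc
upstream of ph-d: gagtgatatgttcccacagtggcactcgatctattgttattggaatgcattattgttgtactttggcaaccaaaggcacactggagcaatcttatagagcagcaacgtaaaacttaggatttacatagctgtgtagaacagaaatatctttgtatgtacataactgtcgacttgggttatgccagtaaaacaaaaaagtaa

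How reads that match both copies were placed is not recorded in these sources, and its part in the difference was not tested. Of the 201 bases around the strongest ph-p summit, 19 lay in a block that matches ph-d. The number was 103 around the second ph-p summit and 85 around the ph-d summit. Around the other 3 ph-p summits it was 0.

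Pc encodes Polycomb, the PRC1 subunit whose chromodomain binds methylated H3K27. Its binding was modest. The single passing summit, at 21316977 in a coding exon 1043 bp after the start, had a signal of 105, with 44.9 and 55.7 in the replicates. It passed in neither replicate, with −log10 IDR of 0.239 and 1.04, and it was no longer counted when start sites alone were used. It was present in the conservative list. In the deposited pooled list its −log10 IDR was 2.63. Pc (FBgn0003042, minus strand, chr3L:21306138-21318020) is 11.9 kb long in the annotation, of which 9.10 kb, or 76.6%, is a roo transposon. The longest stretch of Pc without a ranked summit was 10.4 kb and included that transposon. Over all arms the ranked summits numbered 175 per Mb in annotated transposons and 1055 per Mb elsewhere. The region near the 3′ end of Pc had a stronger site, 1554 bp past the gene, with a signal of 558 and 324 and 223 in the replicates, where it passed. That summit is 74 bp from the start of CG11309, inside that gene.

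The Pc window is shown because it is the only passing member summit in a coding exon and is the richest in G and C, at 56.7%. It spans chr3L:21316877-21317077 on dm6, plus strand, and the capitals mark GCCAT, the core of the Pho site, 71 bases before the summit.
Pc: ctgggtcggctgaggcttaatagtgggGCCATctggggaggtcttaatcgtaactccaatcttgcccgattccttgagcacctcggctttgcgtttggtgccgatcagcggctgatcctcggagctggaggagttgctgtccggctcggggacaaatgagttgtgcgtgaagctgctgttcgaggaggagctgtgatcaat

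E(z) encodes Enhancer of zeste, the methyltransferase subunit of PRC2. It had the second strongest site of the set, with a signal of 383 in the pooled list, 244 in replicate 1 and 141 in replicate 2. Both replicates passed, and the peak held places 345, 271 and 522 in the 3 ranked lists. Of genes with a ranked summit, 96.7% had a lower pooled value. The summit at 10638081 lies 49 bp after the E(z) start (FBgn0000629, minus strand, chr3L:10634575-10638130) in a 5′ UTR exon. It also lies 65 bp from the start of the divergent gene Cnep1r2, so the promoter it belongs to cannot be told apart. The other 6 ranked summits of E(z) did not pass, and the highest of them had a signal of 44.3.

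Su(z)12 encodes the PRC2 subunit that E(z) needs for its activity. Its passing summit was weaker, with a signal of 109 in the pooled list, 56.8 in replicate 1, where it passed, and 46.4 in replicate 2, where it did not. It lay at 19923405, 57 bp after the start of the gene (FBgn0020887, minus strand, chr3L:19918242-19923462) in a 5′ UTR exon. The next start site is that of the divergent gene Pfdn6, 266 bp away. In the pooled list 80.0% of genes with a ranked summit had a lower value than Su(z)12. Genes of other PRC2 subunits are among the other Polycomb group genes below.

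The E(z) and Su(z)12 windows are shown because they hold the start-site summits of the members that belong to PRC2. They span chr3L:10637981-10638181 and chr3L:19923305-19923505 on dm6, plus strand. Capitals mark GAGAG read on the minus strand, the core of the GAGA factor site, 75 bases after the E(z) summit. The Su(z)12 window holds none of the 9 motifs.
E(z): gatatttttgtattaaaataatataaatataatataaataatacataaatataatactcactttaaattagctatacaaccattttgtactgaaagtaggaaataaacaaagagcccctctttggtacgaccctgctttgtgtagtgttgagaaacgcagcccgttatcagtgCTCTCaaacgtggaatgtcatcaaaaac
Su(z)12: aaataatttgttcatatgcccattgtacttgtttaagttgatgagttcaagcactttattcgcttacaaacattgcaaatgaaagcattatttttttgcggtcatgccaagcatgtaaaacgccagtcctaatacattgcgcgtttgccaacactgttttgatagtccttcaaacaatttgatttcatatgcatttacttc

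The PRC1 ring proteins and the remaining members follow from the strongest site down.

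Psc, Posterior sex combs, and Su(z)2 are neighbouring genes that encode related PRC1 subunits which compact chromatin in vitro. The proteins, of 1601 and 1368 residues, are identical at 27.4% of 1216 aligned residues. Psc (FBgn0005624) had an intronic passing summit 5089 bp after the nearest start, with a signal of 265, and 158 and 99.9 in the replicates, both passing. Of genes with a ranked summit, 93.6% had a lower pooled value. The other 25 ranked summits of Psc did not pass. Counting start sites only, Psc was not called, and its strongest signal there was 45.6. Su(z)2 (FBgn0265623) had 14 ranked summits and none passed. Its strongest, in an intron 2136 bp after the start, had a signal of 78.5, with 37.7 and 36.3 as the strongest in the replicates. Its −log10 IDR was 1.93, just under the limit of 2, while the lowest among the passing member summits was 2.25.

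The strongest site of this gene pair lay between the genes. It had a signal of 1086 in the pooled list, and 659 and 426 in the replicates, both passing. The summit is 4203 bp upstream of the Psc start and 11.3 kb upstream of the Su(z)2 start. The nearest noncoding start is that of lncRNA:CR44339, at 170 bp. Farther towards Su(z)2 were passing summits of 162 and 85.6, 5.35 and 4.76 kb upstream of its start. Both lay nearer to the start of CG33798, at 2742 and 2161 bp. The summit of 162 passed in replicate 1 only, and that of 85.6 passed in neither replicate. Given to the gene of the nearest start site, the strongest site would raise Psc from 265 to 1086. Su(z)2 would be called through a summit of 80.3 past its 3′ end, which passed in neither replicate. That gives 7 of 10 members against 22.2% of all genes under that rule.

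Sce, the RING1 protein that ubiquitinates H2A, and Scm, a SAM-domain protein that links PRC1 to other Polycomb proteins, had no passing summit in any list used. The strongest summit of Scm (FBgn0003334) lay in a coding exon and had a signal of 66.1, with 31.8 and 33.8 as the strongest in the replicates. Sce (FBgn0003330), the shortest member, had 29.8, with 23.5 and 25 in the replicates. Scm was above the median of all genes in each list and Sce was below it in each. In the pooled list 62.9% of genes with a ranked summit had a lower value than Scm, and 10.9% had a lower one than Sce.

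pho encodes Pleiohomeotic, the sequence-specific protein that recruits Polycomb complexes to response elements in flies. No ranked summit was assigned to it in any list, so whether it is bound was not measurable here. pho (FBgn0002521) lies on chromosome arm 4, which held 15 ranked peaks, or 11.1 per Mb, against 930.0 to 1076.2 per Mb on the other arms. The summit nearest to pho was 99.7 kb away in the pooled list and 99.0 kb away in each replicate. Of the 80 protein-coding genes on that arm, 3 had a ranked summit in the pooled list, 4 in replicate 1 and 6 in replicate 2. Annotated transposons covered 48.8% of pho. Whether peaks were removed from arm 4 before deposit is not recorded in these sources.

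**Figure D3:**
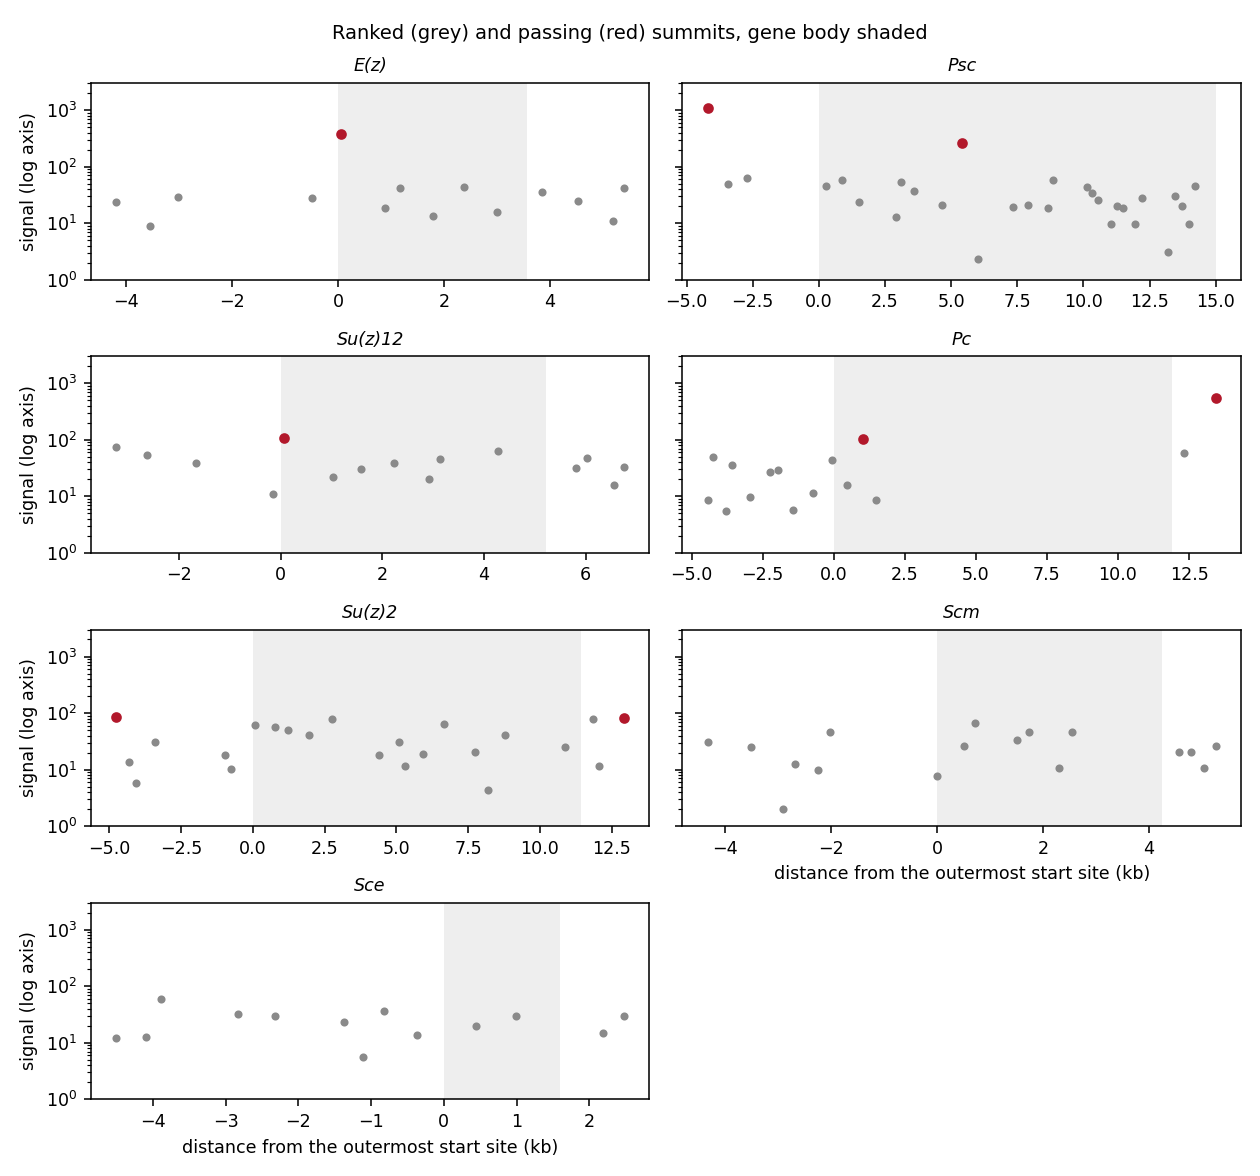
Pooled signal (log axis) of each ranked summit (grey) and passing summit (red) along 7 genes against the distance in kb from the outermost start site, in the direction of transcription, with the gene body shaded. E(z) and Su(z)12 have their passing summit at the start, Psc has one of 265 in an intron and one of 1086 upstream, the Pc body is empty over 10.4 kb, and Scm and Sce have none.

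Passing summits near, but outside, the genes were common. A passing summit in the gene or within 20 kb of it was found for all members but pho, and for 77.9% of all protein-coding genes, so 9 of 10 is close to that share. Beside Su(z)12 were sites of 334 and 215, both within the overlapping genes Mi-2 and Su(Tpl), and beside Scm one of 210 within CG8312 and all 3 were 11294 to 14981 bp outside the member. Each lay nearer to a start of another gene than to one of the member. Sce and E(z) had 1 neighbouring site each, with signals of 88.2 and 91.1, and neither passed in a replicate.

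Base composition was low in G and C, with a median of 36.0% over the 10 windows of 201 bp and a range from 25.9% to 56.7%. The median was 38.3% over all passing summits and 47.8% over ranked summits that did not pass. Of the 9 motifs, sought on both strands within 100 bp, GCCAT was found at 3 member summits (Psc, Pc and a ph-p intron) and at 31.0% of all passing and 41.8% of all ranked windows. GAGAG was found at 2 (E(z) and Psc), with 24.2% and 23.7% of windows. CGATA was at 1, with 29.1% and 19.8%. Motif 7 of core promoters, CATCNCTA, CATCNCTG, CAGCNCTA or CAGCNCTG, was at 1, the ph-p start-site summit of signal 109, with 14% and 7.85%. The DRE TATCGATA, which contains CGATA, had 3.89% and 0.508% and no member. The CTCF core (AGATGGCGC, AGAGGGCGC, AGGTGGCGC or AGGGGGCGC) had 3.28% and 0.757%, Motif 1 had 1.09% and 0.155%, CAGCTG had 10.6% and 11.9%, and the Zelda core CAGGTA had 4.11% and 4.72%, all with no member. None of the motifs lay in the windows of the strongest ph-p summit, the intronic ph-p summit of 206, Su(z)12 or ph-d.

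Words of 8 bases were taken from the 1000 strongest passing summits outside the members and the 20 kb around them, as those most frequent within 50 bp relative to windows 500 bp to each side. The first of the 10 words kept was AGATGGCG, in 2.7% of summit windows and 0.1% of side windows, and it shares its letters with the CTCF core. Any of the 10 words occurred within 100 bp of 19.9% of all passing summits and 7.94% of all ranked summits. Of the 10 member windows, 1 held a word. It was the window of the strongest ph-p summit, where ATTTAAGA on the minus strand, printed as TCTTAAAT on the plus strand, spans bases 6 to 13 after the summit. That word lies inside the 208 bases for which ph-d has 15.

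Genes of 4 other chromatin lists were called in the pooled list at shares from 43.5% to 50%, against 60.0% for the members and 24.1% for all genes, and no difference between lists was tested. The order did not hold in every list. In replicate 2 the members were at 30.0%, the Trithorax group and remodeller genes at 33.3% and the insulator protein genes at 50%, and in the conservative list the members were at 50% and the insulator protein genes at 54.5%. Medians given for a list are over the strongest ranked summit of each gene, and the single genes named are ordered by their strongest passing summit. Of 23 other Polycomb group genes, 10 were called (43.5%), with a median strongest signal of 71.3 against 55.3 for all genes. Among passing summits the strongest were those of jing with 156, Sfmbt, the MBT-repeat partner of Pho, with 144, l(3)73Ah with 124, l(3)mbt with 113 and psq, a GAGAG-binding protein, with 104. The jing summit lay 35820 bp from its start, and the l(3)mbt summit lay 13 bp from the start of CG5934. Kdm2 had a stronger ranked summit, 384, which was absent from the thresholded list. Whether it, or the absent summits of trx and pont below, met the IDR limit is not given here. In each replicate 5 of the 23 were called, or 21.7%, against 18.2% and 17.2% of all genes. Among the further PRC2 subunit genes of this list, jing had 3 passing summits, the strongest being the 156 above, and was called in both replicates. Jarid2 had a passing summit of 69.1 that passed in neither replicate. The strongest ranked signal was 73.4 for esc, 49.6 for escl, 42.3 for Caf1-55 and 36.3 for Pcl, and none of these passed.

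Of 18 Trithorax group genes, which counteract Polycomb silencing, 9 were called (50%; median 102), and 6 in each replicate (33.3%). By passing summits Trl, which encodes the GAGA factor, had 1111, skd of the Mediator complex 220, tna 183, the bromodomain gene fs(1)h 179 and the methyltransferase gene trx 138. A ranked summit of 697 in trx was absent from the thresholded list. Of 27 chromatin remodeller genes, 12 were called (44.4%; median 78.3), and 9 in each replicate (33.3%). Their passing summits were led by brm, the SWI/SNF ATPase, with 931, its partner osa with 747, Ino80 with 378, Mi-2 with 334 and tou with 237. A ranked summit of 482 in pont was absent from the thresholded list. E(bx) had a passing summit in each replicate but no ranked summit in the pooled list. Of 22 insulator protein genes, 11 were called (50%; median 141) in the pooled list and 11 in each replicate. By passing summits Chro led with 1272, followed by Trl, Cp190 with 478, mod(mdg4) with 334 and row with 282. Trl belongs to both lists. Some of the summits named in this paragraph lay nearer to the start of another gene than to that of the named gene. The skd summit lay 54 bp from the start of Pdss2 and the fs(1)h summit 12 bp from that of mys. The mod(mdg4) summit lay 35 bp from the start of pre-mod(mdg4)-E. Those of brm and Mi-2 were nearer to the starts of Arl1 and Su(Tpl).

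Of 24 homeobox genes listed as Polycomb targets, whose silencing was not measured here, 7 were called (29.2%, median 76.5) and 5 in each replicate (20.8%). The 24 include ey and toy, which lie on arm 4 and had no ranked summit. They count as not called, as pho does among the members, although binding there was not measurable. By this assignment rule the shares were near those of all genes, although the median length was 17.7 kb against 8.36 kb for the members. Other rules moved the share both ways. By the gene of the nearest start site 10 were called, or 41.7%, against 22.2% of all genes. With start sites only it was 2, or 8.33%, against 18.6%. The strongest passing summits were those of tin with 439, Dll with 255, hth with 250, Antp with 160 and Abd-B with 107. In the pooled list 60.0% of the genes of the machinery and 29.2% of these targets were called, and the difference was not tested.

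**Figure D4:**
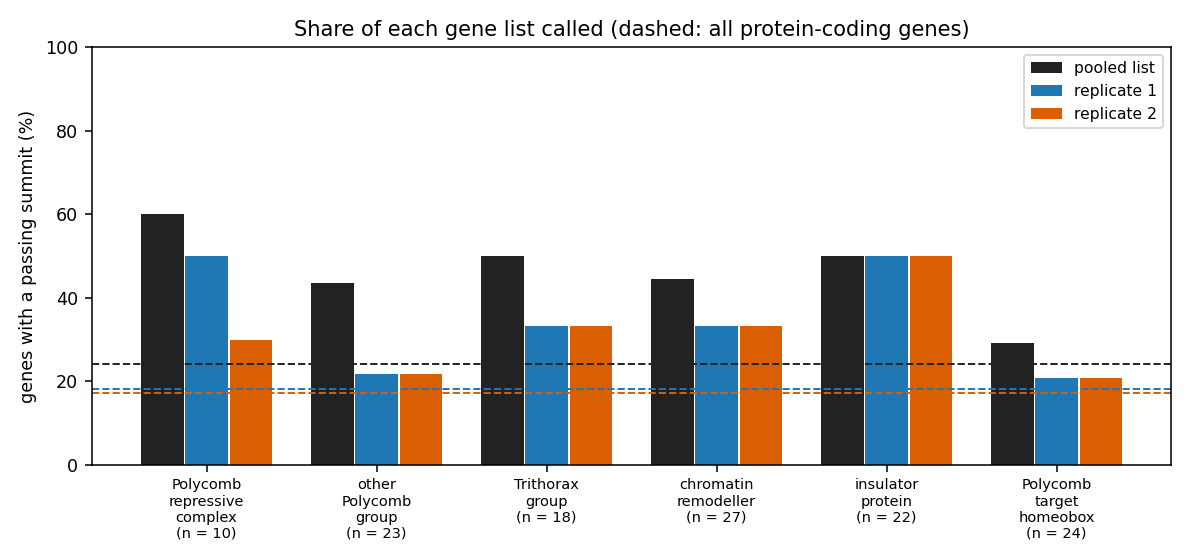
Percentage of the genes of each list with a passing summit in the pooled list and in each replicate, with the share of all protein-coding genes as a dashed line in the same colour. The Polycomb repressive complex genes reach 60.0% in the pooled list, 50% in replicate 1 and 30.0% in replicate 2. Insulator protein genes are at 50% in all 3. The homeobox genes listed as targets are at 29.2% in the pooled list and 20.8% in each replicate.

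The tagged gene itself, CG11247, carried 4 passing summits in the pooled list, the strongest with a signal of 562, and 2 and 3 in the replicates. Its value is given because the transgene may add copies of that sequence, and any part of such copies in the signal was not tested. Since the control experiment was not analysed here, binding of CG11247 and background that precipitates with any antibody cannot be told apart at the sites above.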

How the data were processed

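ChIP-seq peak lists of 2 biological replicates (whole embryos, DNA sheared to 200 to 800 bp) were used on dm6, per the labels. The peak signal is a score the authors deposited, and the ranked lists give the deposited −log10 of the global IDR. The sources used here do not name the peak caller, the aligner or the read numbers, so depth is unknown. The 2 replicates allow values side by side and no test. Gene models were those of Ensembl 115, and bases were read from FlyBase assembly 6. Counting was checked on simulated data.

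The members and gene lists were chosen with earlier results of these data known. Set after seeing the data were the 20 kb neighbourhood and its named sites, the comparison of ph-p with ph-d DNA (BLAST+ 2.17.0, biopython 1.88, padding of 1500 bp), the minimum of 20 windows and 10 words kept (ranked by a ratio of window counts with 1 added to each), and the transposon counts. The rule for names was all members and, of each other list, at most the 5 genes with the strongest passing summit; neighbouring genes such as Cnep1r2, Pfdn6 and CG11309 were named after their values were seen. calypso, a listed gene, was not matched. The gene lists use Kdm5 for lid and e(y)3 for SAYP. Lists were read in Python 3.11.15 with pandas 2.3.3 and numpy 2.4.6.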

Additional observations from a re-analysis of the deposited data

How the results depend on the processing

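The pooled list called 6 members, and the number was 3 with the stronger 50% of passing peaks and ran from 3 to 5 in single replicates. For the other lists it was 3 (other Polycomb group), 5 (Trithorax group) and 4 (homeobox) with the stronger 50%. It was 5 for the other Polycomb group in each replicate, 7 for remodellers by the gene of the nearest start, and 2 for homeobox genes with start sites only. Motif matches at members numbered 7 within 100 bp and 2 within 50 bp. The share of all genes called, 24.1%, was 22.4% with the conservative list, 22.2% by the nearest start, 18.6% with start sites only, 15.6% with the stronger 50%, 25.9% at 1000 bp, 21.1% at 200 bp and 17.2% to 18.2% in single replicates. The median strongest member signal, 105, was 265 with the conservative list and 383 with the stronger 50%, where 5 and 3 members remain by construction, 61.2 with start sites only, and 46.4 to 56.8 in single replicates, whose scales differ. No member was gained by adding, after seeing the data, the 151 peaks past the IDR limit that the thresholded list lacks. No paired analysis was possible because the labels give 1 group. Depth is unknown, so an unbound gene may be one below detection.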
